A study of Homo sapiens with 10 samples.

Results

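ARHGDIB and CORO1A were 2 of the 5000 gene names that carried a peak of m6A, a methylated adenosine found inside RNA, in V16A prostate cancer cells kept in hypoxia or normoxia or named for EU. They were selected on these same peak lists, because the site of their peaks had appeared to switch between hypoxia and normoxia. The positions of their peaks are therefore given as a description, with no test. Every peak that bears either name was taken from the 7 deposited lists, which gave 40 of 26273 peaks, 21 of ARHGDIB and 19 of CORO1A. The peaks did not show a switch of site. Every ARHGDIB base under a normoxia peak was also under a hypoxia peak, and the hypoxia lists added a peak near the 5′ end, another at 67.4% of the gene span, and longer 3′ blocks. CORO1A had peaks in both hypoxia libraries and in the EU library and in no other list, so it had no normoxia site to compare.

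MeRIP-seq pulls down RNA fragments with an antibody against m6A and reports the stretches enriched over unselected RNA as peaks. The pull-down libraries were 2 of hypoxia, 1 of EU at 40 min and 2 of normoxia, all of total RNA from V16A, described in the labels as prostate cancer cells with no other treatment named. The labels give no oxygen level, no length of exposure, no oxygen condition for the EU library and no meaning for EU, and nothing says whether replicates came from separate cultures. The 5 input libraries were not analysed here. Each pull-down library had its own list, and hypoxia and normoxia each had a further list for the condition as a whole, called the condition list here. The sources used here do not say how the condition lists were made.

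The lists differed in length. They held 2879 peaks in hypoxia replicate 1, 6621 in hypoxia replicate 2, 7669 in the hypoxia condition list and 5044 in the EU library, against 212 in normoxia replicate 1, 1563 in the other normoxia replicate and 2285 in the normoxia condition list. Read depth is unknown, so a gene without a peak in a short list is not thereby unmethylated or silent. Of the 5000 names, each with a peak in at least 1 list, 25.2% had a peak in hypoxia replicate 1, 43% in hypoxia replicate 2, 52.7% in the hypoxia condition list and 47.8% in the EU library, against 2.78% in normoxia replicate 1, 17.9% in the other normoxia replicate and 24.6% in the normoxia condition list. Over all names, more genes thus had a peak in hypoxia and EU than in normoxia. The hypoxia and EU lists also held peaks in genes of the T cell receptor and other leukocyte markers, although the labels name a prostate cancer line. Normoxia replicate 1 and the normoxia condition list held peaks in 5 of 17 T and NK cell genes each, among them TRAC. Whether RNA of another cell type was present in any of the libraries, or whether a library was mixed up, was not tested. Every count of hypoxia or EU against normoxia carries that limit. In bulk RNA, fewer cells of a type and less RNA per cell cannot be told apart.

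Small GTPases are molecular switches of the cell, and GDP-dissociation inhibitors hold them in the cytosol in their inactive, GDP-bound form. ARHGDIB encodes such an inhibitor, abundant in blood cells. CORO1A encodes coronin-1A, an actin-binding protein of leukocytes that also binds the Arp2/3 complex, the nucleator of branched actin filaments, and is needed for the survival of T cells. m6A is written on messenger RNA by the METTL3-METTL14 enzyme and is known to lie most often near stop codons and in long internal exons.

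ARHGDIB lies on the minus strand of chromosome 12 at chr12:14942015-14961601 (GRCh38.p14, the build of the RefSeq table; the peak lists use hg38), a span of 19587 bases with introns. Position is given here as the middle of a peak in percent of that span, counted from the 5′ end. It had 3 peaks in hypoxia replicate 1, 4 in hypoxia replicate 2, 4 in the hypoxia condition list and 2 in the EU library, against 3 in normoxia replicate 1, 2 in the other normoxia replicate and 3 in the normoxia condition list. It was 1 of 17 genes with a peak in all 7 lists, which is 0.34% of the 5000 names. The 21 peaks were 12 distinct peaks by their exon blocks, of which 4 recurred in more than 1 list.

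The peak shared most widely was the same interval in nearly every list. A peak of 2 blocks at chr12:14950543-14950979, at 55.3% of the span, had identical edges in 6 of the 7 lists: both hypoxia libraries, the hypoxia condition list, the EU library, normoxia replicate 1 and the normoxia condition list. Its blocks of 182 and 63 bases flank a gap of 192 bases. Normoxia replicate 2 had a narrower peak of 99 bases at chr12:14950591-14950689, inside the longer block. This site was held in common by hypoxia, EU and normoxia.

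At the 3′ end the lists also met in 1 stretch of exon. The stretch at chr12:14942115-14942721, 607 bases centred at 97.9% of the span, held peak bases in all 7 lists. It was covered over 510 bases in hypoxia replicate 1, 607 in hypoxia replicate 2, 607 in the hypoxia condition list and 490 in the EU library, against 315 in normoxia replicate 1, 147 in the other normoxia replicate and 412 in the normoxia condition list. The hypoxia lists covered it with 1 unbroken block, whereas normoxia replicate 1 and the normoxia condition list broke it into pieces of different peaks. In hypoxia the peak ran on over a gap of 2054 bases and another of 2849 bases into further blocks, and these same gaps occurred in normoxia replicate 1 and the normoxia condition list. The 3′-most peak of normoxia replicate 2 and that of the EU library were single blocks.

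A peak near the 5′ end, and another beyond the middle of the span, were listed in hypoxia and not in EU or normoxia. A peak of 2 blocks at chr12:14956296-14961214, with 99 bases spread over 61 and 38 bases on either side of a gap of 4820 bases, had identical edges in all 3 hypoxia lists. Its first block began 387 bases from the 5′ end of the gene span and its middle lay at 14.5%. A second peak of 148 bases at chr12:14947897-14948894, at 67.4%, was listed in hypoxia replicate 2 and the hypoxia condition list, and not in hypoxia replicate 1. These 2 peaks and parts of the 3′ peak made up the 490 bases of ARHGDIB that were under a hypoxia peak and under no normoxia peak.

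The peak at chr12:14947897-14948894 came close to an annotated transcript start inside the gene span. RefSeq (GRCh38.p14) places a transcript start at base 14948896, and the edge of the hypoxia peak lay 2 bases from it, so that 48 of the first 50 bases after that start were under the peak. These bases are shown because they are the only sequence of an ARHGDIB peak in the tables at hand. The 30 bases at chr12:14948850-14948879, on the minus strand and 5′ to 3′, are bases 18 to 47 of that transcript, and the capitals mark the 1 match to the m6A motif DRACH (A, G or T, then A or G, then A, C, and last A, C or T).
ARHGDIB: taccccgacatgcTGACAtctctccaggag
The sense strand held 1 match, TGACA, and the other strand of these 30 bases held 0. Of 35116 RefSeq windows of the same 48 bases after a start, 47.5% held a match on the sense strand, so the match is a description and marks no methylated site. The other RefSeq starts in the table, at bases 14951151 and 14951106, lay 172 and 127 bases before the shared peak at chr12:14950543-14950979, and no list had a peak base within the first 50 bases after either. Counted from these starts, the peak at 55.3% of the whole span would lie close to a 5′ end.

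**Figure D1:**
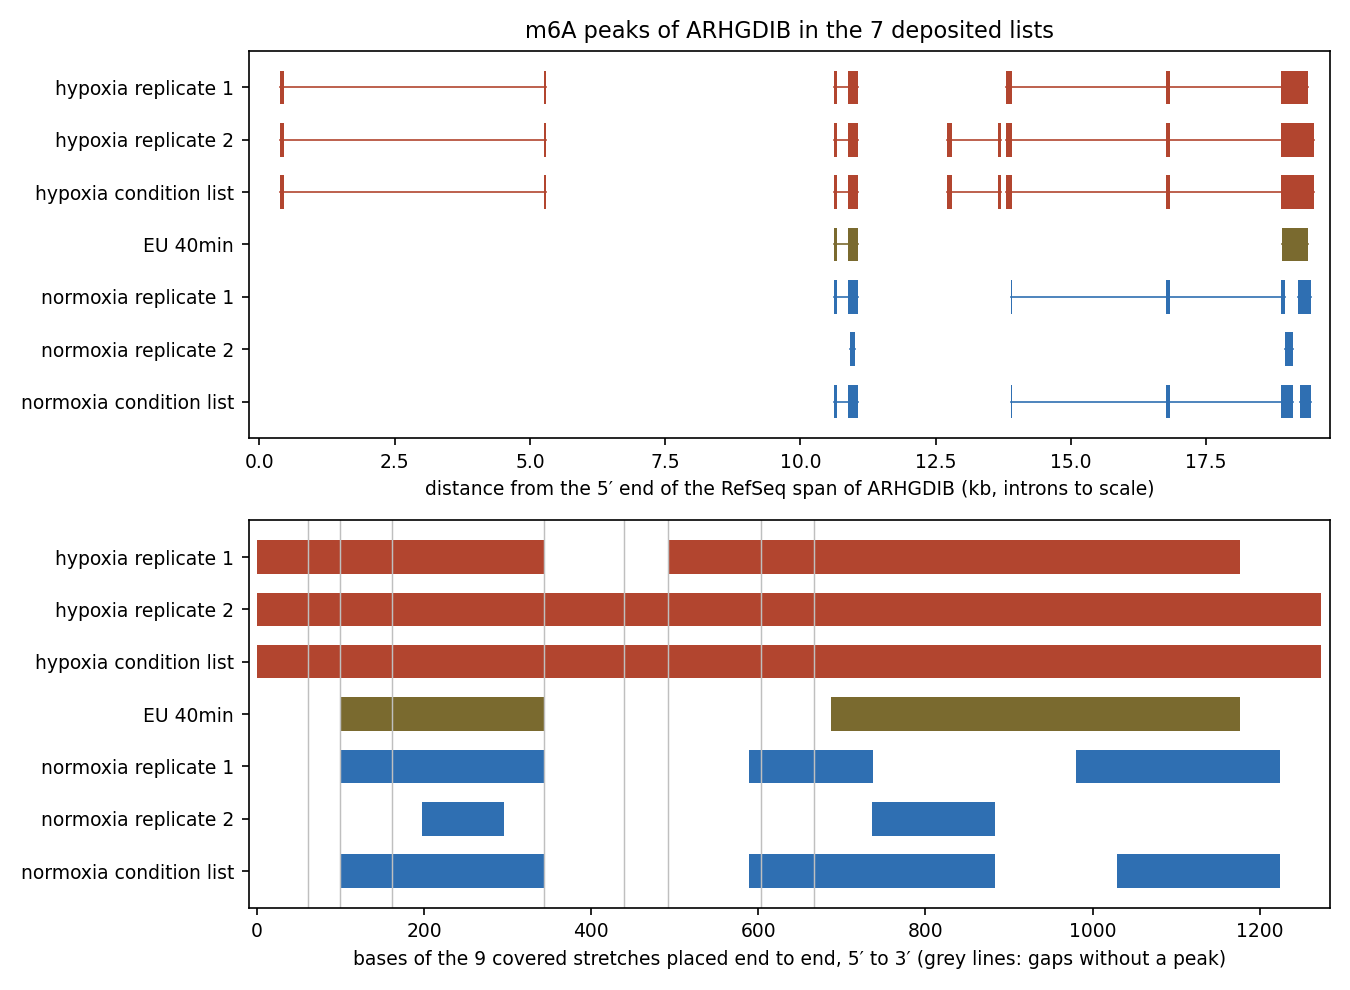
Peaks of ARHGDIB in the 7 lists, with hypoxia in red, EU in olive and normoxia in blue. The upper panel plots exon blocks (bars) and gaps (lines) by distance from the 5′ end of the gene in kb; the lower panel places the 9 covered stretches end to end in bases, without the gaps. The 3 hypoxia lists reach the 5′ end, and every blue bar lies below a red one.

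Base by base, the normoxia peaks of ARHGDIB were nested in those of hypoxia. The 3 hypoxia lists covered 1274 bases and the 3 normoxia lists 784, and all 784 (100%) were inside the hypoxia peaks. Against hypoxia replicate 1 alone, the list with the fewest hypoxia bases, 736 of 784 normoxia bases (93.9%) were inside. The hypoxia bases were shared less fully in the other direction, with 61.5% of them under a normoxia peak.

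The replicates differed within each condition as well. All 1029 bases of hypoxia replicate 1 lay in hypoxia replicate 2, where they made up 80.8% of its 1274 bases. The 638 bases of normoxia replicate 1 and the 246 of normoxia replicate 2 had 100 bases in common, which is 15.7% and 40.7% of them. Each normoxia replicate thus shared more of its bases with either hypoxia replicate (92.5% to 100%) than with the other normoxia replicate. The widths of the lists limit that comparison. Normoxia replicate 2 covered 246 bases, so most of the 638 bases of normoxia replicate 1 could not be shared with it. The hypoxia replicates covered 1029 and 1274 bases, so no likeness of the libraries is read from these shares. The 735 bases of the EU library all lay within both hypoxia replicates, and 638 of them (86.8%) lay within the normoxia lists.

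The median position of ARHGDIB peaks was lower, nearer the 5′ end, in hypoxia than in normoxia. The median was 55.3% of the span in hypoxia replicate 1, 61.4% in hypoxia replicate 2 and 76.5% in the EU library, against 83.9% in normoxia replicate 1 and 76.5% in normoxia replicate 2. The hypoxia replicates averaged 58.4 ± 4.27% and the normoxia replicates 80.2 ± 5.17% (SD, n = 2 each), with each median taken over 2 to 4 peaks. ARHGDIB was chosen on this contrast, so the distance between the conditions is a description. Over all lists, the median was 55.3% for 11 hypoxia peaks and 84% for 8 normoxia peaks, a difference of 28.7 percentage points, normoxia minus hypoxia. A peak found in several lists was counted once in each, so these are not separate observations. The medians also depend on how the 3′ bases were cut into peaks. Hypoxia replicate 1 had 1 long 3′ peak with its middle at 84.7%, whereas normoxia replicate 1 had 2 peaks there, at 83.9% and 98.6%. The 4 peaks of the hypoxia condition list repeat those of hypoxia replicate 2. When the peak or peaks with the smallest deposited p of each condition stood for it, the difference was -12.1 points, because 3 peaks of hypoxia replicate 2 shared that p and the peak of normoxia replicate 1 was the one at 55.3%. The sign of the difference thus depends on which peaks represent a condition. The nesting of bases does not rank peaks by p, but it rests on which peaks each list holds. The largest p differed between lists, from 0.0026 in normoxia replicate 1 to 0.012 in hypoxia replicate 2.

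The difference was set against all genes with peaks in both conditions. Of 795 such genes with a RefSeq span, the median difference was 0.0972 points, with quartiles at -4.19 and 6.31, and 75 genes (9.43%) had a difference at least as large as that of ARHGDIB in the same direction. In either direction, 145 genes (18.2%) did. Genes whose normoxia peaks lay at least 50% of the span from their hypoxia peaks numbered 51 (6.42%), and ARHGDIB was not among them. Genes with no base shared between hypoxia and normoxia peaks numbered 149 of 834 (17.9%), and ARHGDIB was not among these either. It was 1 of 144 genes (17.3%) with every normoxia base inside a hypoxia peak, and 1 of 501 (63%) whose most 5′ hypoxia peak began before its most 5′ normoxia peak. Since ARHGDIB was chosen on this contrast, nothing is read from these shares beyond where the gene stands.

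**Figure D2:**
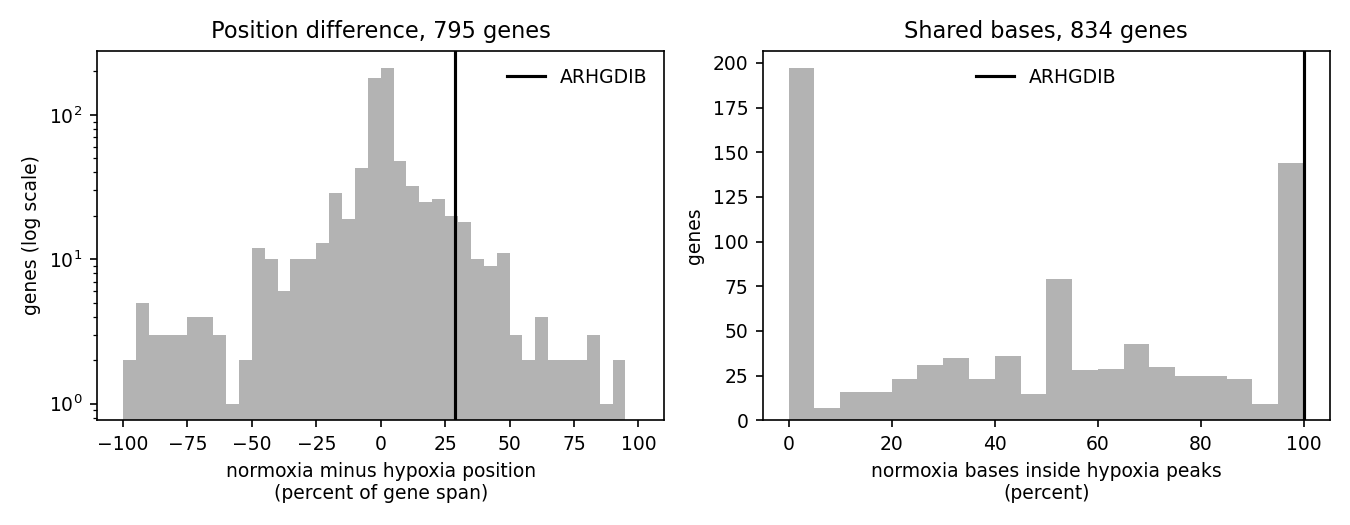
ARHGDIB (black line) among genes with a peak in both a hypoxia and a normoxia list (grey). The left panel plots the normoxia minus hypoxia difference in peak position in percent of the gene span over 795 genes, on a log scale of genes; the right panel plots the percent of normoxia bases inside hypoxia peaks over 834 genes. ARHGDIB stands at 28.7 points and at 100%.

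Genes with the pattern most like that of ARHGDIB were ranked by presence in the same lists and then by position difference. The first 5 all had a peak in the 7 lists, with smaller differences. Presence was ranked first, so genes without a peak in every list came later whatever their difference. ZWINT, which had no peak in normoxia replicate 1, had 28.1 points and 100% of its normoxia bases inside hypoxia peaks. SLC25A37, a mitochondrial iron importer, had a difference of 10.8 points, with peaks at 81.1% of its span in hypoxia and 91.9% in normoxia. HIST1H4I, a histone gene with near-identical copies whose reads may have been split among them, had 6.31 points, and the noncoding RNA MALAT1 had 3.5 points. RBM12, which encodes an RNA-binding protein, had 2.18 points, and ACTB, which encodes beta-actin, had 0.348 points. Differences of similar or larger size in the opposite direction occurred too among genes with a peak in all 7 lists, with -66.3 points for NFE2L1, a transcription factor whose normoxia bases were also 100% inside hypoxia peaks, and -26.9 for ADAR, an RNA-editing enzyme. These 2 genes and ZWINT were chosen after their values were seen.

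CORO1A lies on the plus strand of chromosome 16 at chr16:30183602-30189076 (GRCh38.p14), a span of 5475 bases. It had 5 peaks in hypoxia replicate 1, 7 in hypoxia replicate 2, 0 in the hypoxia condition list and 7 in the EU library, against 0 in normoxia replicate 1, 0 in the other normoxia replicate and 0 in the normoxia condition list. It was 1 of 10 genes (0.2% of the 5000 names) with peaks in both hypoxia libraries and the EU library and in no other list. It was also 1 of 45 genes (6.6% of 682) that had peaks in both hypoxia libraries and none in the condition list of hypoxia.

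The sites of CORO1A were nearly the same in the 2 hypoxia libraries. The peaks at chr16:30185290-30185439, chr16:30187784-30187883, chr16:30187983-30188132 and chr16:30188430-30188579, at 32.2%, 77.3%, 81.4% and 89.6% of the span, had identical edges in both. The remaining peak of hypoxia replicate 1, at chr16:30187129-30187585, was 50 bases shorter at each end than the peak of hypoxia replicate 2 at chr16:30187079-30187635, and both spanned a gap of 158 bases. All 849 bases of hypoxia replicate 1 lay within the 1448 bases of hypoxia replicate 2, where they made up 58.6%. The other 2 peaks of hypoxia replicate 2, at chr16:30183612-30183910 and chr16:30186682-30186980, had no counterpart in hypoxia replicate 1.

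The EU library placed its 7 CORO1A peaks one for one over those of hypoxia replicate 2. The peaks at chr16:30187784-30187883 and chr16:30188430-30188579 had identical edges in the EU library and both hypoxia libraries. The other 5 differed by 49 to 199 bases at 1 or both edges. Of 1198 bases under EU peaks, 1049 (87.6%) were inside hypoxia peaks and 149 were not. The median position was 77.3% in hypoxia replicate 1, 68.6% in hypoxia replicate 2 and 67.7% in the EU library, so the lists with 7 peaks had the lower medians.

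Both members shared bases between EU and hypoxia, as did most genes with peaks in both. Of 1243 genes with an EU and a hypoxia peak, 1098 (88.3%) shared at least 1 base. Every EU base lay inside a hypoxia peak in 178 of them (14.3%). ARHGDIB was among the 178, and CORO1A was not.

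The most 5′ peak of CORO1A in hypoxia replicate 2 began 10 bases after the annotated start, and that of the EU library began 60 bases after it. Of the first 50 bases after the RefSeq start at base 30183602, 40 were under the peak of hypoxia replicate 2. The first 30 of these, chr16:30183612-30183641 on the plus strand, are shown 5′ to 3′ as the counterpart of the ARHGDIB stretch, with the DRACH match in capitals.
CORO1A: tTGACAagagcatcttcagcgggcgagtcc
The sense strand held 1 match, again TGACA, and the other strand held 1 match too, and 41.5% of the 35116 RefSeq windows of the same 40 bases held a sense match. The sequences of the other peaks were not analysed here.

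An RNA on the opposite strand had peaks over the same start. Peaks named RP11-455F5.5, on the minus strand, overlapped the CORO1A span at chr16:30183600-30184129, which begins just before the span. They were listed in hypoxia replicate 1, hypoxia replicate 2, the hypoxia condition list and the EU library, with the same edges and 240 bases in each. A further peak at chr16:30184319-30184414 was listed in hypoxia replicate 2 and the hypoxia condition list. The normoxia lists had none, as for CORO1A. The first overlapped the 5′ peak of CORO1A by 114 bases in hypoxia replicate 2 and by 64 in the EU library. The sources used here do not say how counting used strand, so reads of CORO1A and of RP11-455F5.5 cannot be told apart over these bases, and the 5′ peak is uncertain. The remaining CORO1A peaks lay clear of it. ARHGDIB had no peak of another name inside its span or within 50 kb in any list.

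**Figure D3:**
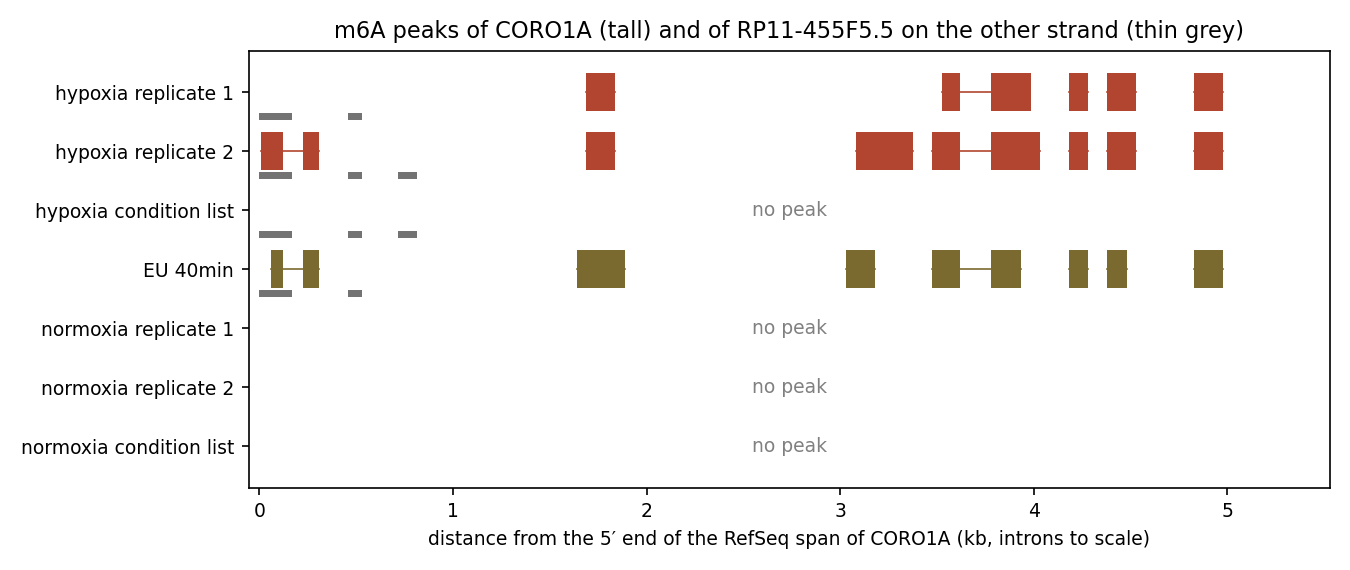
Peaks of CORO1A (tall bars, hypoxia in red and EU in olive) and of RP11-455F5.5 on the opposite strand (thin grey bars) by distance from the 5′ end of CORO1A in kb, for the 7 lists. The 5 peaks of hypoxia replicate 1 each overlap a peak of hypoxia replicate 2 and of the EU library, and the hypoxia condition list and the 3 normoxia lists are blank for CORO1A.

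The deposited p of each peak is the authors' and was used to rank peaks within a list, where 0% is the smallest p. ARHGDIB stood high in 5 lists and low in the others. Its best peak ranked at 10.1% in hypoxia replicate 1, 11.6% in hypoxia replicate 2, 12.8% in the hypoxia condition list and 81.4% in the EU library, against 13.2% in normoxia replicate 1, 61% in the other normoxia replicate and 10.5% in the normoxia condition list. The 5′ peak of hypoxia ranked lower than the other hypoxia peaks of the gene, at 50.1%, 49.3% and 44% in hypoxia replicate 1, hypoxia replicate 2 and the hypoxia condition list. Its deposited p there was 1.4e-05, 1.5e-05 and 2.3e-05.

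CORO1A stood near the end of both hypoxia lists. In hypoxia replicate 1 the deposited p was 0.0035 for 4 peaks and 0.0045 for the peak at chr16:30185290-30185439, at ranks of 97.6% and 98.3%. In hypoxia replicate 2 all 7 peaks had 0.0045, at a rank of 95.3%. These hypoxia values lie above the largest p of normoxia replicate 1, which was 0.0026. They lie below the largest p of normoxia replicate 2 (0.0081), the normoxia condition list (0.0078) and the hypoxia condition list (0.011). Whether a limit on p kept CORO1A out of any list was not tested. In the EU library the p values were lower, at 1.2e-05 for the peak at chr16:30185241-30185489, 8.5e-05 for 5 peaks and 0.00036 for the most 5′ peak, at ranks of 30.5%, 46.5% and 64.6%. CORO1A thus ranked higher than ARHGDIB in the EU library and lower in both hypoxia libraries. Several peaks of a gene often shared a p: among genes with more than 1 peak, the share with a repeated p was 52.2% in hypoxia replicate 1, 68.1% in hypoxia replicate 2 and 72% in the EU library, against 41.7% in normoxia replicate 1 and 54.1% in normoxia replicate 2. The 7 peaks of CORO1A with 0.0045 are therefore not 7 separate values.

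**Figure D4:**
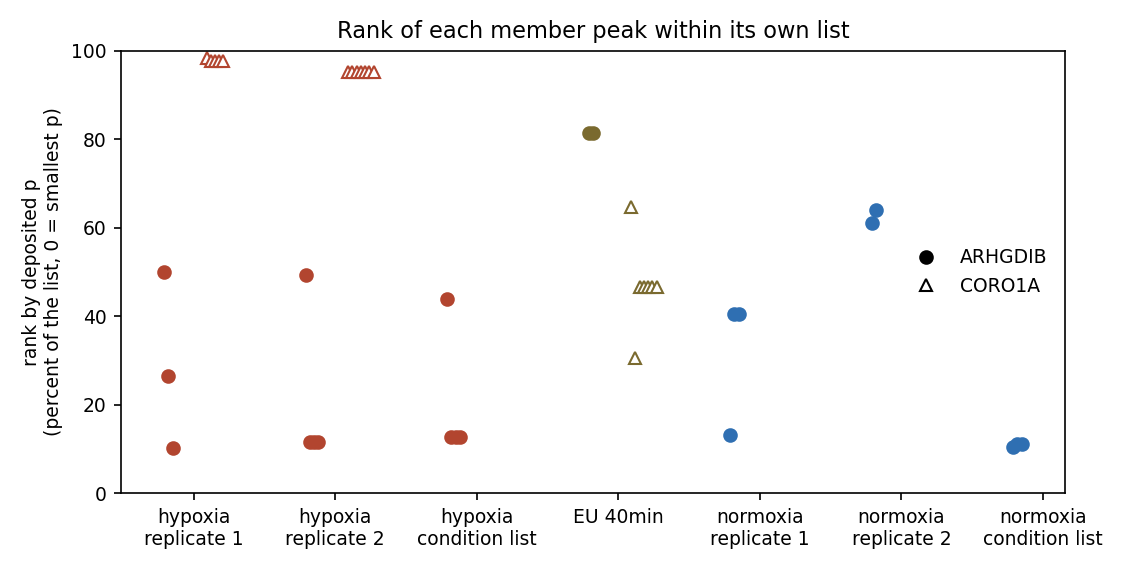
Rank of every ARHGDIB peak (filled circles) and CORO1A peak (open triangles) within its own list by the deposited p, in percent of the list, with 0 for the smallest p. CORO1A peaks lie above 95% in both hypoxia libraries and between 30.5% and 64.6% in the EU library, whereas ARHGDIB peaks lie at 10.1% to 50.1% in the hypoxia lists and at 81.4% in the EU library.

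Other genes of the actin skeleton were counted from lists chosen with earlier results of these data known. The shares of all 5000 names given above (25.2%, 43% and 52.7% in the hypoxia lists and 47.8% in EU, against 2.78%, 17.9% and 24.6% in the normoxia lists) are the background for each count, over names with a peak somewhere. Of 7 coronins, CORO1A, CORO1B and CORO2A had peaks, and none of them in normoxia. CORO1B, the broadly expressed relative of CORO1A, had 2, 1 and 1 peaks in the hypoxia lists and 1 in the EU library. CORO1A was the 1 coronin with peaks in both hypoxia libraries and none in the condition list. All 9 Arp2/3 genes had a peak in some list, with 4, 6 and 7 in the hypoxia lists and 2 in the EU library, against 0, 1 and 0 in the normoxia lists. ACTR2, an actin-related subunit, was the 1 with peaks in both conditions, at a position difference of -1.78 points.

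Of 22 genes of actin nucleation and turnover, 19 had a peak: 14, 16 and 18 in the hypoxia lists and 13 in the EU library, against 5, 1 and 5 in the normoxia lists. The 5 with peaks in both conditions were ACTB, ACTG1, TMSB4X, TMSB10 and LCP1. ACTG1 (gamma-actin), the actin-sequestering thymosins TMSB4X and TMSB10 and LCP1, the actin-bundling L-plastin of leukocytes, had 100% of their normoxia bases inside hypoxia peaks, as ARHGDIB did. Their position differences were 20.1 points for ACTG1, 53.9 for TMSB4X, 11.6 for TMSB10 and -10.5 for LCP1, so genes with nested peaks differed in both directions. Of all 5000 names, more also had a peak in hypoxia or EU than in normoxia, so the counts of the list are read no further. ACTB and ACTG1 are near-identical in their coding parts, and reads may have been split between them.

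Because both members are known from blood cells, markers of other cell types were counted beside them. Of 12 pan-leukocyte genes, 8, 11 and 11 had a peak in hypoxia replicate 1, hypoxia replicate 2 and the hypoxia condition list and 9 in the EU library, against 1, 0 and 0 in normoxia replicate 1, normoxia replicate 2 and the normoxia condition list. The shares of all 5000 names were 25.2%, 43%, 52.7% and 47.8% in hypoxia and EU, against 2.78%, 17.9% and 24.6% in normoxia. Their summed peaks ran from 27 to 53 in the hypoxia lists, with 24 in the EU library, against 0 to 1 in the normoxia lists. PTPRC, which encodes the leukocyte antigen CD45, had 4, 4 and 5 peaks in the hypoxia lists, 2 in the EU library and none in normoxia. Of 17 T and NK cell genes, 11, 13 and 13 had a peak in the hypoxia lists and 12 in the EU library, against 5, 0 and 5 in the normoxia lists, beside the same background shares. CD3D, CD3E and CD247, parts of the T cell receptor complex, had peaks in all hypoxia lists and the EU library and in no normoxia list. TRAC, another gene of the receptor, had 2 peaks each in normoxia replicate 1 and the normoxia condition list as well. CD3G and TRBC1 had none in hypoxia replicate 1, and CD4 and CD6 had none anywhere. None of 5 B cell genes had a peak, and of 8 myeloid genes CD68 alone did, in the hypoxia condition list.

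The T and NK cell genes with normoxia peaks were CD2, TRAC, NKG7, GZMA and GZMB, in normoxia replicate 1 and the normoxia condition list. All 5 had 100% of their normoxia bases inside hypoxia peaks. ARHGDIB, by contrast, had peaks in normoxia replicate 2, which held no peak in the 12 pan-leukocyte and 17 T and NK cell genes counted. Genes of lymphocytes outside these lists, GIMAP7, TBX21 and RASGRP1, did have a peak there; they were looked up after the data were seen. The lists of CORO1A (both hypoxia libraries and EU) were among those with 8 to 11 pan-leukocyte genes. The part of these cell types in the peaks of ARHGDIB and CORO1A was not tested.

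Of 14 genes of prostate epithelium, the labelled tissue, 2, 5 and 4 had a peak in the hypoxia lists and 8 in the EU library, against 1, 6 and 6 in the normoxia lists. The background shares are those given for the pan-leukocyte genes. FOXA1, a pioneer transcription factor of prostate epithelium, had peaks in all 7 lists, as ARHGDIB did. KRT8, KRT18 and KRT19, keratins of luminal epithelium, had no peak in any list.

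**Figure D5:**
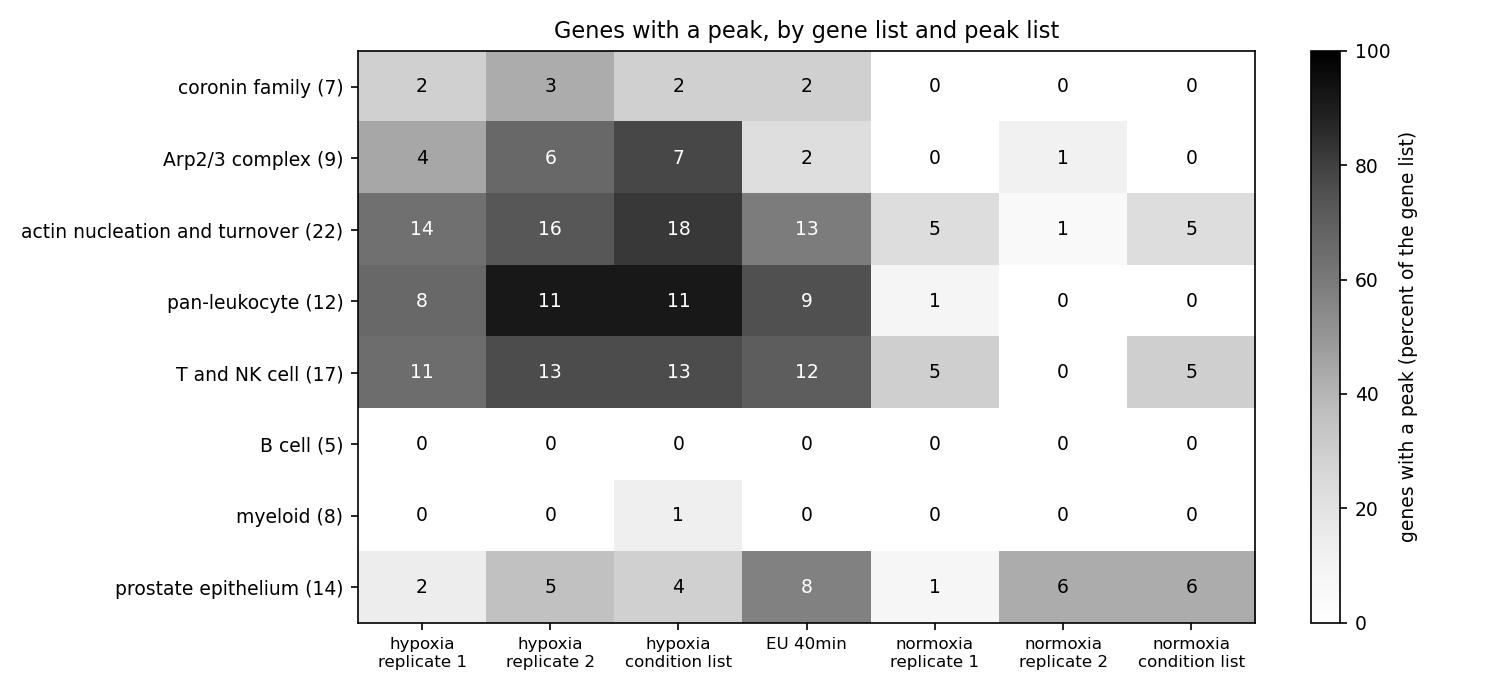
Genes with at least 1 peak in each of the 7 lists (columns) for 3 actin pathway lists and 5 cell type marker lists (rows, with the number of genes in brackets); numbers are genes and shading is the percent of the gene list. The pan-leukocyte row holds 8 to 11 genes in the hypoxia lists and 9 in EU, against 0 to 1 in the normoxia lists.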

How the data were processed

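Peak lists of 5 m6A pull-down libraries and 2 condition lists were used as deposited, in 12 BED columns without a header. STAR and the build hg38 stand in the submitters' processing notes without version; how peaks were called, what cutoff, inputs and annotation were used and whether strand counted are not given in the sources used here. Column 5 holds the authors' deposited p-value, read as such because its values ascend from 0 to 0.013; the files do not name the column. Coordinates are 1-based. Peaks were compared by exon block and strand, with a minimum overlap of 1 base, in Python 3.11.15 with numpy 2.4.6. Names were matched to RefSeq spans (GRCh38.p14) by name and position within 10 kb, and 4575 of 5000 (91.5%) matched. Overlap code was tested on simulated blocks. The members and gene lists were chosen with earlier results of these data known. Named genes were the members, pathway genes with peaks in both conditions and the 5 nearest in pattern; further examples were chosen after their values were seen. Some genes of the lists are not reported here. No test was run, and the lists give no depth. Sequences are RefSeq's, in a table of 250 bases before to 50 after each start.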

Additional observations from a re-analysis of the deposited data

How the results depend on the processing

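The position difference of ARHGDIB was 28.7 points, normoxia minus hypoxia. It was 28.5 from the replicates alone, 22.8 from the condition lists alone and 22.7 from the better-ranked 50% of each list. Leaving out a replicate kept the condition lists, and the hypoxia condition list holds the same 4 ARHGDIB peaks as hypoxia replicate 2. With each replicate left out in this way, the difference was 22.7 to 28.9, which is no check without that replicate's peaks. The difference reversed to -12.1 with the peak of smallest p of each condition, a comparison of p across lists. It was 35.8 with position as the mean over covered bases, an alternative chosen after seeing the data. Genes with no shared base (149 of 834, 17.9%) numbered 68 of 496 (13.7%) with the replicates alone, 53 of 286 (18.5%) with the better-ranked 50%, 103 of 560 (18.4%) with the condition lists alone and 216 of 834 (25.9%) when an overlap had to reach 50% of the smaller peak, and 122 to 153 with each replicate left out. Genes at least 50% of the span apart (51 of 795, 6.42%) numbered 20 of 471 (4.25%) with the replicates alone, 25 of 531 (4.71%) with the condition lists alone and 18 of 263 (6.84%) with the better-ranked 50%, and 43 to 47 with each replicate left out. Keeping the better-ranked 50% of each list left 0 ARHGDIB peaks in the EU library and 0 in normoxia replicate 2, and 0 CORO1A peaks in hypoxia replicate 1 and 0 in hypoxia replicate 2. Of 53 alternatives, 42 stayed within the replicate spread or 1.5 times the count. Among the 53, 28 recounted the peaks of the members per list, and 24 of those stayed. Many of these recounts could not change, since neither span held a same-strand peak of another name and some lists held no CORO1A peak. The tally is therefore no measure of stability. The CORO1A position difference could not be computed, since no normoxia list holds a peak. No paired analysis was run, and the labels do not say whether replicates of the same number are pairs. By replicate number, the ARHGDIB difference was 28.5 points for replicate 1 and 15.2 for replicate 2. A list of peaks holds neither the level of methylation nor that of expression.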

Other observations

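The other 9 genes with peaks in both hypoxia libraries and the EU library and in no other list, as for CORO1A, were CCNL2, CDV3, DPP4, EXOSC10, RP11-290D2.6, RPS25, TMEM43, U2AF2 and WDHD1. DPP4, a cell-surface peptidase also known as CD26, had 6 and 8 peaks in the hypoxia libraries and 1 in the EU library, and WDHD1, a DNA replication factor, had 3, 5 and 5. U2AF2, a splicing factor, and EXOSC10, a nuclease of the RNA exosome, had 3, 1 and 1 each. The genes other than ARHGDIB with peaks in all 7 lists included TLN1, the integrin-linked actin adaptor talin, with 12, 5 and 12 peaks in the hypoxia lists and 3 in the EU library, against 2, 1 and 5 in the normoxia lists. ADAR, an RNA-editing enzyme, had 5, 6 and 7 in the hypoxia lists and 3 in the EU library, against 1, 1 and 3 in the normoxia lists.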
